A study of Mus musculus with 9 samples.

Results

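Genes that prepare, start and carry out DNA replication, and genes that supply its deoxynucleotides, were followed across mouse pancreatic neuroendocrine tumours. Their members were 40 genes named for these roles. Of these, 38 had a row in the deposited table of 22053 rows, and Cdt1 and Gins2 are not analysed here. All 38 stood at 1 FPKM or more (fragments scaled by transcript length and library size) in every library, so none was lost to the filter on low values. They took 0.498% to 0.601% of all FPKM in a library.

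RNA was sequenced from 9 samples in 3 groups of 3. Liver metastases of the N134-RHAMMB line (metastases 1, 2 and 3) and subcutaneous tumours of the same line (N134-RHAMMB tumours 1, 2 and 4) were set against each other and against subcutaneous tumours of the N134 line (N134 tumours 1, 2 and 3). The N134 cells come from a neuroendocrine tumour of the mouse pancreas. Their derivative N134-RHAMMB takes its name from RHAMMB, which is 1 isoform of RHAMM, the hyaluronan receptor that Hmmr encodes. The host of every group was the NSG mouse (NOD.Cg-PrkdcscidIl2rgtm1Wjl/SzJ), which carries the Prkdc scid allele and a null Il2rg allele and lacks mature T, B and natural killer cells but keeps macrophages. Injection was subcutaneous or by tail vein, and the effect of the site cannot be told apart from that of the route. The age and sex of the mice, the promoter and species of the RHAMMB construct, whether N134-RHAMMB is 1 clone or a pool, and whether replicates came from separate mice are not stated in the labels. The spread between these samples may therefore be technical. The p-values set differences of group means against that spread and may not hold for other mice.

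Before S phase, the origin recognition complex and Cdc6 load the MCM helicase onto DNA with the loading factor Cdt1, a step called licensing. Geminin, the product of Gmnn, binds Cdt1 and blocks a second round of licensing until mitosis is over. Cyclin-dependent kinases, Cdc45 and the GINS complex then switch the loaded helicase on. Polymerases extend primers made by primase while the sliding clamp PCNA, loaded by replication factor C, holds them on DNA, and flaps between Okazaki fragments are cut by Fen1 and joined by Lig1. Ribonucleotide reductase, thymidylate synthase and thymidine kinase supply the deoxynucleotides. Many of these genes are known targets of E2F transcription factors and are widely used as signs of proliferation in tumours.

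The libraries held an estimated 14.8 M to 18.2 M fragments. A single fragment of a 2 kilobase transcript was worth 0.0275 to 0.0338 FPKM, far below every member. All 19 islet and neuroendocrine markers stood at 1 FPKM or more in all 9 libraries. Summed hepatocyte markers (15 genes) stood at 4255 to 4391 FPKM in metastases and 313 to 417 FPKM in N134-RHAMMB tumours, against 367 to 455 FPKM in N134 tumours. Outside the liver most of this sum was Ttr, at 480 to 574 FPKM in metastases and 282 to 390 FPKM in N134-RHAMMB tumours, against 334 to 427 FPKM in N134 tumours. Alb, the defining marker, stood at 1410 to 1609 FPKM in metastases and 0.481 to 0.720 FPKM in N134-RHAMMB tumours, against 1.14 to 1.60 FPKM in N134 tumours. Sums of host markers also differed between groups, though those of metastases and N134-RHAMMB tumours overlapped: 10 fibroblast genes summed to 223 to 433, 329 to 555 and 685 to 940 FPKM in metastases, N134-RHAMMB tumours and N134 tumours, and 10 macrophage genes to 215 to 366, 341 to 454 and 467 to 798 FPKM. Col3a1 was the largest part of the fibroblast sum. In metastases against N134-RHAMMB tumours 3 of the 10 fibroblast genes were higher, among them Dcn (24.4 to 34.0 against 10.6 to 14.9 FPKM), and 1 of the 10 macrophage genes. The 9 erythroid genes with a row summed to 283 to 383 FPKM in metastases and 397 to 862 FPKM in N134-RHAMMB tumours, against 974 to 1948 FPKM in N134 tumours, and 4 of them reached 1 FPKM in every library. Of the fibroblast and macrophage lists, 9 and 9 genes reached 1 FPKM in every metastasis, and no gene of either was at 0 throughout a group. In N134-RHAMMB tumours 2 and 4 the 9 skeletal muscle markers with a row summed to 165 and 204 FPKM, against at most 22.6 FPKM in the other libraries, and Pvalb was at 0 in every metastasis. In bulk RNA, fewer cells of a type and less RNA per cell cannot be told apart, and the part that these host cells play in the results was not tested. Hmmr stood at 36.0 to 43.3 FPKM in metastases and 49.2 to 51.3 FPKM in N134-RHAMMB tumours, against 39.2 to 44.9 FPKM in N134 tumours. Whether the RHAMMB construct adds to these values was not tested.

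The summed FPKM of the 38 genes averaged 2353 ± 85.1 in metastases, 2590 ± 47.2 in N134-RHAMMB tumours and 2431 ± 66.5 in N134 tumours (SD, n = 3 each). For each gene the highest library was set over the lowest. The median of this ratio was 1.40, and 27 of 38 genes (71.1%) stayed under 1.5, against 40.9% of the 7118 genes tested with a mean of 10 FPKM or more. Every member except Orc1 stayed under 2. Orc1, the least abundant member in all 9 libraries, spanned a ratio of 3.14. Pcna was the most abundant in all 9 libraries.

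**Figure D1:**
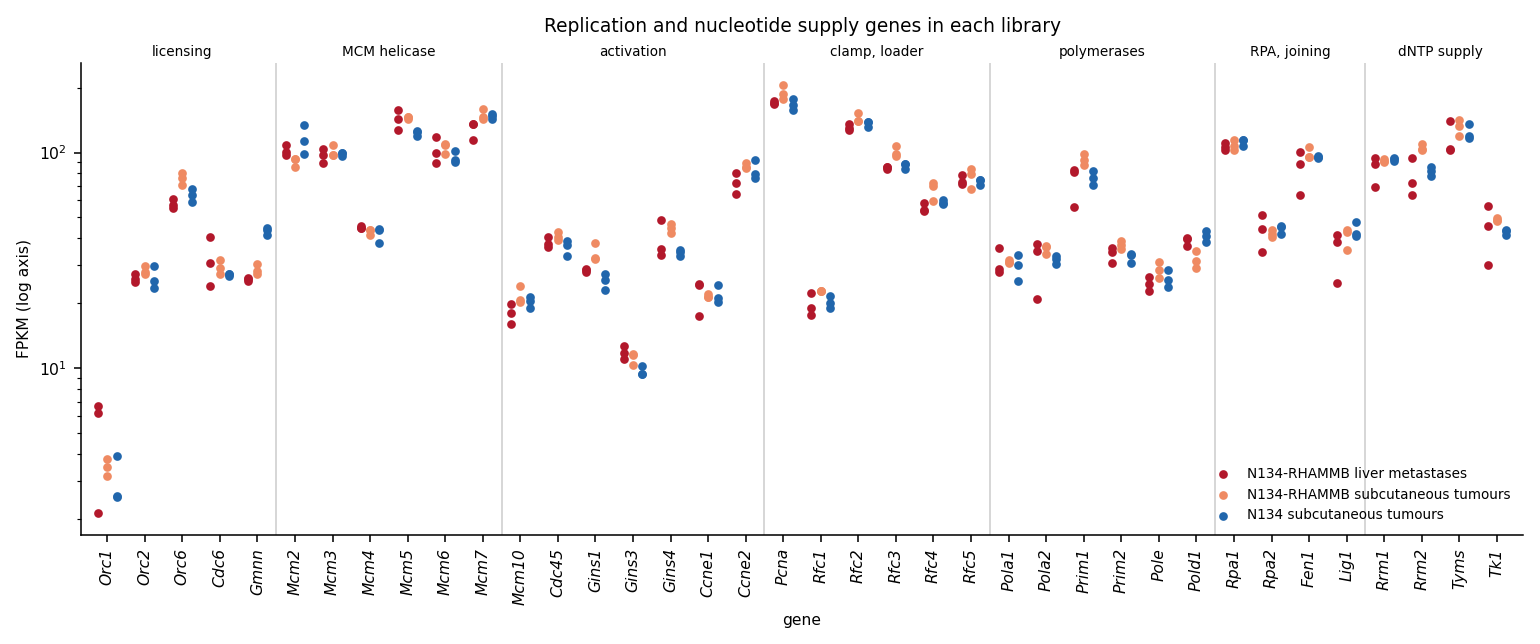
FPKM (log axis) of the 38 genes in each library, ordered by role, with liver metastases left, N134-RHAMMB tumours in the middle and N134 tumours right for each gene. Each point is 1 library. Pcna lies at the top with 157 to 206 FPKM and Orc1 at the bottom with 2.12 to 6.66 FPKM, and in most genes the 3 groups lie close together.

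Among licensing genes, Gmnn and Orc6 were those that passed a test in at least 1 comparison. Gmnn (ENSMUSG00000006715, chromosome 13, 24751845 to 24761923, minus strand, GRCm38) stood at 25.4, 26.0 and 26.1 FPKM in metastases and 28.4, 27.4 and 30.5 FPKM in N134-RHAMMB tumours, against 43.5, 41.6 and 44.4 FPKM in N134 tumours. All 6 libraries of the RHAMMB line lay below all 3 of the parental line, and every metastasis lay below every N134-RHAMMB tumour. Orc6 (ENSMUSG00000031697, chromosome 8, 85299632 to 85308278, plus strand), which encodes the smallest subunit of the origin recognition complex, stood at 61.0, 57.4 and 55.4 FPKM in metastases and 76.1, 80.5 and 70.9 FPKM in N134-RHAMMB tumours, against 67.6, 59.1 and 63.3 FPKM in N134 tumours. Its highest values were those of N134-RHAMMB tumours, which did not overlap with either other group. Of its 2469 exonic bases, 6.9% are shared with Vps35 on the other strand, and the strand setting of the counting is not stated.

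Orc1, the largest subunit and an ATPase, stood at 6.22, 6.66 and 2.12 FPKM in metastases and 3.17, 3.48 and 3.79 FPKM in N134-RHAMMB tumours, against 2.53, 3.92 and 2.56 FPKM in N134 tumours (mean 5.002 ± 2.502, 3.48 ± 0.313 and 3.002 ± 0.799 FPKM). Metastases 1 and 2 were above all other libraries and metastasis 3 was the lowest of all 9. Of the exonic bases of Orc1, 10.8% are shared with Gm12743 on the other strand. Cdc6, the ATPase that joins the origin complex to load the helicase, averaged 31.8 ± 8.45, 29.4 ± 2.18 and 27.1 ± 0.399 FPKM in metastases, N134-RHAMMB tumours and N134 tumours, with metastasis 1 alone at 40.7 FPKM. Orc2, a core subunit, ranged from 23.6 to 29.8 FPKM over all libraries, and 29.8% of its exonic bases are shared with Nif3l1.

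The helicase genes Mcm2 to Mcm7 encode the subunits of 1 hexamer, yet their RNA levels per length differed by 2.78 to 3.86 times within a library. Mcm4 was the lowest of the 6 in all 9 libraries, at 38.2 to 45.7 FPKM. Mcm7 was the highest in 5 libraries and Mcm5 in 4. Mcm7 stood at 135.8, 114.1 and 135.6 FPKM in metastases and 146.5, 159.8 and 143.5 FPKM in N134-RHAMMB tumours, against 151.1, 147.4 and 143.2 FPKM in N134 tumours, with every metastasis below every subcutaneous tumour. Mcm5 stood at 143.3, 126.8 and 158.4 FPKM in metastases and 146.4, 142.5 and 146.2 FPKM in N134-RHAMMB tumours, against 126.5, 118.9 and 124.4 FPKM in N134 tumours, so the lowest values were those of the parental line. Mcm2 was lowest in N134-RHAMMB tumours, with 108.0, 100.4 and 97.3 FPKM in metastases and 93.8, 93.5 and 85.6 FPKM in N134-RHAMMB tumours, against 98.1, 113.7 and 134.2 FPKM in N134 tumours. Mcm3 and Mcm6 ranged from 89.6 to 108.9 and from 89.6 to 117.9 FPKM over all libraries.

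Promoter sequences of RefSeq (build GRCm38.p6, 250 bases before to 50 after the start) were matched by symbol for 30 of the 38 genes, taking the start nearest the 5′ end of the deposited locus. The start taken could still lie far from that end, by 539 bases in Mcm7, 350 in Cdc6 and 224 in Fen1. They were searched on both strands for 4 E2F words, TTTGGCGC, TTTCGCGC, TTTCCCGC and TTTGCCGC, which can overlap each other on opposite strands. Of the 30 promoters 10 (33.3%) held at least 1 such word, against 4.1% of 9882 promoters of genes tested and 2.9% of all 16023 matched promoters. CCAAT was found in 20 (66.7%), against 39.1% of promoters of genes tested, and TTTGAA in 4 (13.3%), against 11.5%. The median GC content was 57.3% in members and 61.0% in promoters of genes tested. Of the 31 promoters of other replication factors, 8 (25.8%) held an E2F word. A match is a description of letters and not a shown binding site.

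The 4 promoters below show Mcm5 and Mcm6, where words on opposite strands overlap to 1 run, Orc1 with a single word near the start, and Orc6, which passed in the comparison of metastases with N134-RHAMMB tumours, and in which none of the 4 words occurs. Capitals mark E2F words, and positions count from the RefSeq start as +1. Mcm5 lies at chr8:75109259-75109558 (plus strand), with words first at -153 and -149. Mcm6 lies at chr1:128359656-128359955 (minus strand), with words at -110, -106 and -47. Orc1 lies at chr4:108579204-108579503 (plus strand), with its word at -27, and Orc6 at chr8:85299382-85299681 (plus strand).
Mcm5: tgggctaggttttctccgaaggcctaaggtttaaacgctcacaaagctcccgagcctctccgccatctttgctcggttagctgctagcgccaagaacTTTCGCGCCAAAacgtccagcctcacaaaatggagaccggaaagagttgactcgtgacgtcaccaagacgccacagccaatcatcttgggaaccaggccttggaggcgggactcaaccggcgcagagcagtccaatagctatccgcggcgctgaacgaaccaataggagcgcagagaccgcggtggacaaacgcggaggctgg
Mcm6: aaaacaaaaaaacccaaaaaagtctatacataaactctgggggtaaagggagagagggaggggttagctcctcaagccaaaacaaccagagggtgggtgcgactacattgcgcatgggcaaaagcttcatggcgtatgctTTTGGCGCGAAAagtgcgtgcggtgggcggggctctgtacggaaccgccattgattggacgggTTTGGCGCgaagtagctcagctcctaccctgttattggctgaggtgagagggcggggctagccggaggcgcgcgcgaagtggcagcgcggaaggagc
Orc1: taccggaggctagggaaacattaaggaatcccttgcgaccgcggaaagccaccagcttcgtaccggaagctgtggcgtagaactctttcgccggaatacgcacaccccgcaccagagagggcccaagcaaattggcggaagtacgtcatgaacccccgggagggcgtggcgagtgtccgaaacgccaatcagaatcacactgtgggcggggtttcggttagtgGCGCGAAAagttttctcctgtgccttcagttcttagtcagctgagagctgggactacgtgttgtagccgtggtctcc
Orc6: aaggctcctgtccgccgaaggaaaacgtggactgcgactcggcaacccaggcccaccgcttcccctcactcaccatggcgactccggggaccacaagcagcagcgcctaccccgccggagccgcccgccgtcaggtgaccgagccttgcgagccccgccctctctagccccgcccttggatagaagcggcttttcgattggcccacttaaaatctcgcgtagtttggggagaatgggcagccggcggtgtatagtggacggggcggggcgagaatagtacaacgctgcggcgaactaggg

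Other members with E2F words were Mcm3, Mcm7 and Rfc3 with 2 each, and Cdc6, Gins3, Pola1 and Pold1 with 1 each. Of the members with the largest differences in any comparison below, Pold1, Orc1, Gins3, Mcm5 and Mcm7 held a word, and Orc6, Rrm2, Mcm2, Prim1, Rfc4 and Lig1 held none. Promoters of Gmnn, Gins1 and Gins4 were not analysed here.

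Genes that activate the helicase included the 3 measured GINS subunits, which bind MCM and Cdc45 to form the active helicase. Gins4 stood at 33.3, 35.6 and 48.4 FPKM in metastases and 46.9, 44.9 and 42.5 FPKM in N134-RHAMMB tumours, against 33.2, 34.4 and 35.5 FPKM in N134 tumours. Gins1 stood at 28.5, 28.7 and 28.1 FPKM in metastases and 31.9, 38.1 and 32.4 FPKM in N134-RHAMMB tumours, against 27.2, 22.9 and 25.7 FPKM in N134 tumours. In both genes all N134-RHAMMB tumours lay above all N134 tumours. Gins3 was the lowest of the 3 in all libraries and averaged 11.8 ± 0.799, 11.2 ± 0.748 and 9.70 ± 0.492 FPKM in metastases, N134-RHAMMB tumours and N134 tumours. Cdc45 ranged from 33.3 to 43.0 FPKM and Mcm10, which helps the helicase start to unwind, from 16.05 to 23.97 FPKM over all libraries.

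Of the E-type cyclins, which drive entry into S phase with Cdk2, Ccne2 exceeded Ccne1 in all 9 libraries, by 2.64 to 4.61 times. Ccne2 stood at 72.5, 80.7 and 64.1 FPKM in metastases and 86.2, 89.2 and 85.2 FPKM in N134-RHAMMB tumours, against 75.9, 79.9 and 91.9 FPKM in N134 tumours. Ccne1 averaged 22.1 ± 4.01, 21.6 ± 0.402 and 21.9 ± 2.17 FPKM, and its groups overlapped. Of the exonic bases of Ccne2, 17.4% are shared with Ints8 on the other strand.

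Pcna, the sliding clamp, stood at 169.9, 167.3 and 174.3 FPKM in metastases and 187.7, 206.4 and 178.1 FPKM in N134-RHAMMB tumours, against 166.7, 157.2 and 176.7 FPKM in N134 tumours. Rfc2, a small subunit of the loader, stood at 127.7, 135.5 and 130.2 FPKM in metastases and 140.3, 152.9 and 140.2 FPKM in N134-RHAMMB tumours, against 139.1, 131.1 and 138.7 FPKM in N134 tumours. In both genes the 3 N134-RHAMMB tumours lay above all 6 other libraries. Rfc2 was the highest and Rfc1, the large subunit, the lowest of the 5 loader genes in all 9 libraries, 5.80 to 7.70 times apart. Rfc3 averaged 85.1 ± 0.877, 100.9 ± 5.88 and 87.1 ± 2.43 FPKM in metastases, N134-RHAMMB tumours and N134 tumours, and Rfc4 55.3 ± 2.70, 67.2 ± 6.81 and 58.9 ± 1.27 FPKM. Rfc5 ranged from 67.6 to 83.8 FPKM over all libraries. Rfc2, Rfc4 and Rfc5 share 15.1%, 12.7% and 10.7% of their exonic bases with a gene on the other strand, and Pcna has 2 annotated pseudogenes.

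Among polymerase genes, Prim1, the catalytic subunit of primase, stood at 81.6, 55.7 and 83.4 FPKM in metastases and 98.0, 92.2 and 87.7 FPKM in N134-RHAMMB tumours, against 82.2, 70.7 and 76.4 FPKM in N134 tumours. Its regulatory partner Prim2 was lower in all 9 libraries, at 30.8 to 38.8 FPKM. Pold1, the catalytic subunit of the main lagging-strand polymerase, stood at 36.8, 39.6 and 40.2 FPKM in metastases and 31.4, 29.0 and 35.1 FPKM in N134-RHAMMB tumours, against 40.9, 43.3 and 38.4 FPKM in N134 tumours. All 3 N134-RHAMMB tumours lay below the 6 other libraries. Pole, the catalytic subunit of the main leading-strand polymerase, averaged 24.6 ± 1.83, 28.6 ± 2.53 and 25.9 ± 2.38 FPKM in metastases, N134-RHAMMB tumours and N134 tumours, and its groups overlapped. Pola1 and Pola2, subunits of the polymerase that extends the RNA primer, lay within 1.38 times of each other in every library.

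The groups overlapped in every comparison for the 4 single-strand binding and fragment joining genes. Rpa1, the large subunit of the single-strand binding complex, had the smallest ratio of highest to lowest library (1.11), at 110.3, 105.8 and 102.9 FPKM in metastases and 114.2, 102.5 and 107.1 FPKM in N134-RHAMMB tumours, against 114.2, 106.9 and 114.3 FPKM in N134 tumours. Fen1, the flap endonuclease, stood at 101.0, 63.8 and 88.2 FPKM in metastases and 95.4, 106.6 and 95.4 FPKM in N134-RHAMMB tumours, against 95.5, 94.1 and 96.1 FPKM in N134 tumours, with metastasis 2 apart from the other libraries. An antisense gene covers 78.8% of the exonic bases of Fen1. Lig1, which seals the fragments, averaged 34.98 ± 8.98, 40.5 ± 4.40 and 43.5 ± 3.67 FPKM in metastases, N134-RHAMMB tumours and N134 tumours, and Rpa2 43.5 ± 8.43, 42.0 ± 1.53 and 44.2 ± 2.04 FPKM.

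Of the nucleotide supply genes, Rrm2, the regulated small subunit of ribonucleotide reductase, stood at 72.2, 63.6 and 94.6 FPKM in metastases and 104.1, 103.0 and 109.2 FPKM in N134-RHAMMB tumours, against 86.1, 77.9 and 81.8 FPKM in N134 tumours. The N134-RHAMMB tumours lay above all other libraries. Rrm1, the large subunit, stood at 94.0, 69.4 and 88.7 FPKM in metastases and 91.3, 93.7 and 90.2 FPKM in N134-RHAMMB tumours, against 94.8, 93.6 and 91.2 FPKM in N134 tumours, and its groups overlapped. Tyms, thymidylate synthase, stood at 103.5, 139.6 and 102.7 FPKM in metastases and 132.7, 142.2 and 119.5 FPKM in N134-RHAMMB tumours, against 116.6, 118.9 and 135.4 FPKM in N134 tumours. Its groups overlapped too, and it has an annotated pseudogene. Tk1, thymidine kinase, averaged 44.1 ± 13.4, 48.9 ± 0.851 and 42.9 ± 1.196 FPKM.

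N134-RHAMMB and N134 tumours under the skin differ in the line and share the site. Gmnn was the member that passed: it fell to 28.7 ± 1.58 FPKM in N134-RHAMMB tumours, against 43.2 ± 1.47 FPKM in N134 tumours (SD, n = 3 each). The difference was -0.57 on the log2(FPKM + 1) scale (SE 0.09, limma adjusted p = 0.0492, lower in 3 of 3 libraries). Of the 38 members 1 passed and 9 had an unadjusted p under 0.05, while limma called 0.194% of all 12854 genes tested (0.0778% higher, 0.117% lower) and 12.8% had an unadjusted p under 0.05. The groups did not overlap in 18 members, 15 higher and 3 lower in N134-RHAMMB tumours, against 25.3% of all genes, 14% higher and 11.3% lower. The median difference of the members was 0.11, against 0.01 over all genes tested, and 30 members (78.9%) were positive, against 52.3% of all genes. With each library centred on its islet and neuroendocrine genes, the members' median was 0.03, against -0.07 over all genes, and 22 members were positive.

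The members with the next largest differences did not pass. Gins1 stood at 0.42 (SE 0.11, limma adjusted p = 0.173), Gins4 at 0.37 (SE 0.14, adjusted p = 0.296) and Rrm2 at 0.36 (SE 0.13, adjusted p = 0.304). On the other side were Pold1 at -0.35 (SE 0.10, adjusted p = 0.210) and Mcm2 at -0.33 (SE 0.12, adjusted p = 0.285). These 5 genes had groups that did not overlap, and their adjusted p lay between 0.0102 and 0.0218 with library weights, which called 11 members and 2629 of all 12854 genes. The 95% interval of the difference lay within a change of 1.5-fold either way in 29 members and within 2-fold in all 38.

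The call of Gmnn in this comparison lay close to the threshold and was kept in 8 of 21 alternatives. With all 9 libraries it was lost with a mean of at least 5 FPKM (limma adjusted p = 0.0596), with no intensity trend (0.0755) and with robust empirical Bayes (0.0533). With the replicate number added to the model as a block it was lost too (limma adjusted p = 0.185). It was lost without any 1 N134 tumour (limma adjusted p = 0.161 to 0.203), without any 1 N134-RHAMMB tumour (0.106 to 0.260) and without metastasis 1 or 3 (0.0542 and 0.0589), which share in the estimate of the spread. Over all alternatives the difference stayed between -0.66 and -0.54.

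**Figure D2:**
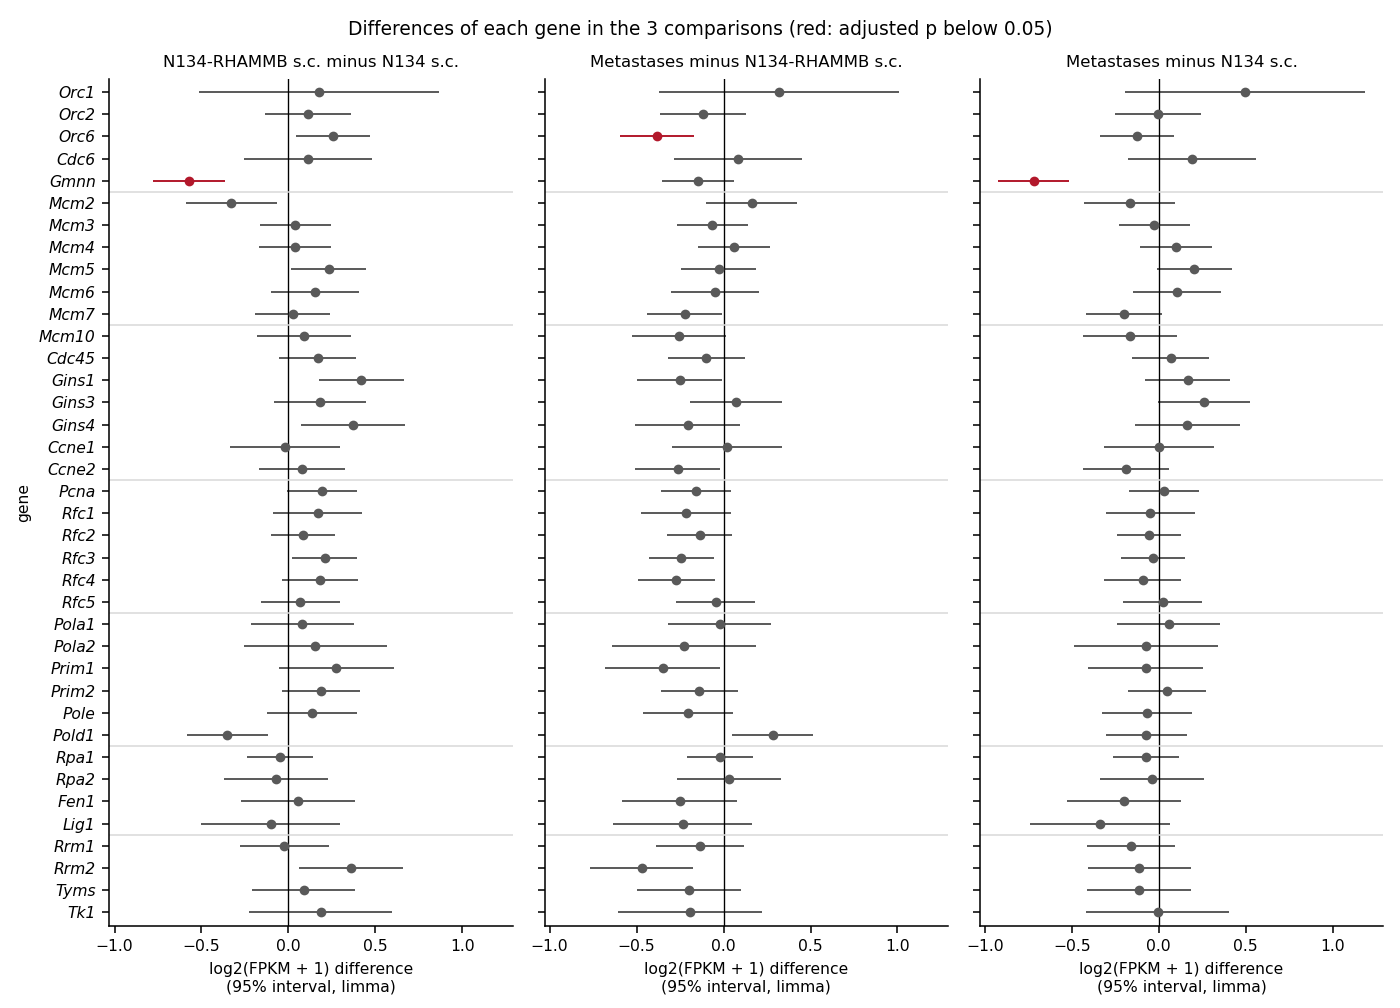
Differences of the 38 genes on the log2(FPKM + 1) scale with 95% intervals (limma, 3 libraries per group), for N134-RHAMMB tumours minus N134 tumours (left), metastases minus N134-RHAMMB tumours (middle) and metastases minus N134 tumours (right). Red marks an adjusted p below 0.05, reached by Gmnn in the left panel (-0.57), Orc6 in the middle (-0.38) and Gmnn in the right (-0.72). Orc1 has the widest intervals.

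Liver metastases and subcutaneous tumours of N134-RHAMMB share the line and differ in site and injection route. Orc6 fell to 58.0 ± 2.86 FPKM in metastases, against 75.8 ± 4.80 FPKM in N134-RHAMMB tumours, a difference of -0.38 (SE 0.10, limma adjusted p = 0.0402, lower in 3 of 3 libraries). It was 1 of 38 members to pass, and 9 had an unadjusted p under 0.05. Over all genes limma called 6.56% (5.04% higher, 1.52% lower), and 16.7% had an unadjusted p under 0.05. The groups did not overlap in 17 members, 3 higher and 14 lower in metastases, against 19.8% of all genes, 8.8% higher and 11% lower. This comparison and the one before share the N134-RHAMMB tumours.

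Rrm2, with the largest difference, did not pass, at -0.47 (SE 0.13, limma adjusted p = 0.0739). It passed in 2 of 21 alternatives, with library weights and without metastasis 3 (-0.63, adjusted p = 0.00399). Metastasis 3 was the metastasis nearest to the N134-RHAMMB tumours in Rrm2. Prim1 stood at -0.35 (SE 0.15, adjusted p = 0.269), Orc1 at 0.32 (SE 0.31, adjusted p = 0.711), Pold1 at 0.28 (SE 0.10, adjusted p = 0.189) and Rfc4 at -0.27 (SE 0.10, adjusted p = 0.181). None of the 6 clamp and loader genes passed (2 at an unadjusted p under 0.05). The members' median was -0.14, against -0.06 over all genes, and 8 members (21.1%) were positive, against 39.5% of all genes. With each library centred on its islet and neuroendocrine genes, the median of all genes stood at 0.14 and the members' median at 0.06, so the direction of the members' median turned. Relative to all genes it was -0.09 in both, which is fixed in advance, since the centring shifts all genes of a library alike. On the islet scale Orc6 stood at -0.18 (limma adjusted p = 0.480), and it also missed the threshold with median-of-ratios scaling (0.149) and quantile normalization (0.0618). Pold1 passed in 1 of 21 alternatives, on the islet scale (0.48, adjusted p = 0.0460).

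The call of Orc6 was kept in 5 of 21 alternatives. It was lost without any 1 N134 tumour (limma adjusted p = 0.0530 to 0.0763) or any 1 N134-RHAMMB tumour (0.0568 to 0.150). Without metastasis 1 or 3 it was lost as well (limma adjusted p = 0.0525 and 0.107). Other losses came with a mean of at least 5 FPKM (limma adjusted p = 0.0627) and no intensity trend (0.0918). The 2 groups alone (0.103) and the replicate block (0.137) also lost it. The 95% interval lay within 1.5-fold in 31 members and within 2-fold in 37, all but Orc1.

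Liver metastases differ from N134 tumours in line, site and injection route together. Gmnn fell to 25.8 ± 0.375 FPKM in metastases, against 43.2 ± 1.47 FPKM in N134 tumours, a difference of -0.72 (SE 0.09, limma adjusted p = 4.2e-04, lower in 3 of 3 libraries). It passed under all 21 alternatives, with differences from -0.75 to -0.61 and adjusted p up to 0.00564. No other member passed, and Gmnn was also the 1 member with an unadjusted p under 0.05, against 9.93% of all genes called (5.69% higher, 4.23% lower) and 21.4% at an unadjusted p under 0.05. The groups did not overlap in 6 members, 4 higher and 2 lower, against 25.7% of all genes. The median difference was -0.04, against -0.03 over all genes, and on the islet scale, where its direction turned, 0.07 against 0.08. Before that centring 14 members (36.8%) were positive, against 45.2% of all genes.

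Next in size were Orc1 at 0.50 (SE 0.31, limma adjusted p = 0.420), Lig1 at -0.34 (SE 0.18, adjusted p = 0.329) and Gins3 at 0.26 (SE 0.12, adjusted p = 0.248). Mcm5 stood at 0.21 (SE 0.10, adjusted p = 0.260) and Mcm7 at -0.20 (SE 0.10, adjusted p = 0.279). Orc1 passed in 1 of 20 alternatives, without metastasis 3 (0.91, adjusted p = 0.0176), the library with its lowest value. Mcm5 passed in 1 of 21, without metastasis 2 (0.29, adjusted p = 0.0490). The 95% interval lay within 1.5-fold in 35 of 38 members, all but Gmnn, Lig1 and Orc1.

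Ratios within a library, which no library scaling can move, were formed after the values had been seen and are given without a test. Of 8 such ratios, those in which 1 group stood apart from both others are given first. Gmnn over Cdc6, the inhibitor over an activator of licensing, was 0.624, 0.848 and 1.09 in metastases and 0.896, 1.003 and 1.04 in N134-RHAMMB tumours, against 1.60, 1.56 and 1.62 in N134 tumours. Every N134 tumour exceeded all 6 libraries of the RHAMMB line. The same held for Gmnn over Orc6. It was 0.416 to 0.471 in metastases and 0.340 to 0.430 in N134-RHAMMB tumours, against 0.643 to 0.704 in N134 tumours. Rrm2 over Rrm1 was 0.768, 0.916 and 1.07 in metastases and 1.14, 1.10 and 1.21 in N134-RHAMMB tumours, against 0.909, 0.832 and 0.896 in N134 tumours. Pold1 over Pole was 1.61, 1.61 and 1.52 in metastases and 1.10, 1.11 and 1.13 in N134-RHAMMB tumours, against 1.44, 1.69 and 1.62 in N134 tumours. In these last ratios the N134-RHAMMB tumours stood apart from both other groups, above them for Rrm2 over Rrm1 and below them for Pold1 over Pole. In Rrm2 over Rrm2b the metastases stood apart, below both other groups. That ratio was 5.44 to 7.85 in metastases and 10.1 to 11.5 in N134-RHAMMB tumours, against 8.33 to 10.6 in N134 tumours. Gmnn over Fbxo5, whose groups overlapped, was 0.889, 0.713 and 0.843 in metastases and 0.713, 0.678 and 0.736 in N134-RHAMMB tumours, against 0.743, 0.690 and 0.989 in N134 tumours. Ccne2 over Ccne1 overlapped between the groups too. In Mcm2 over Mcm5 the metastases overlapped with both other groups. There the N134-RHAMMB tumours lay below the N134 tumours (0.586 to 0.656 against 0.775 to 1.08).

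**Figure D3:**
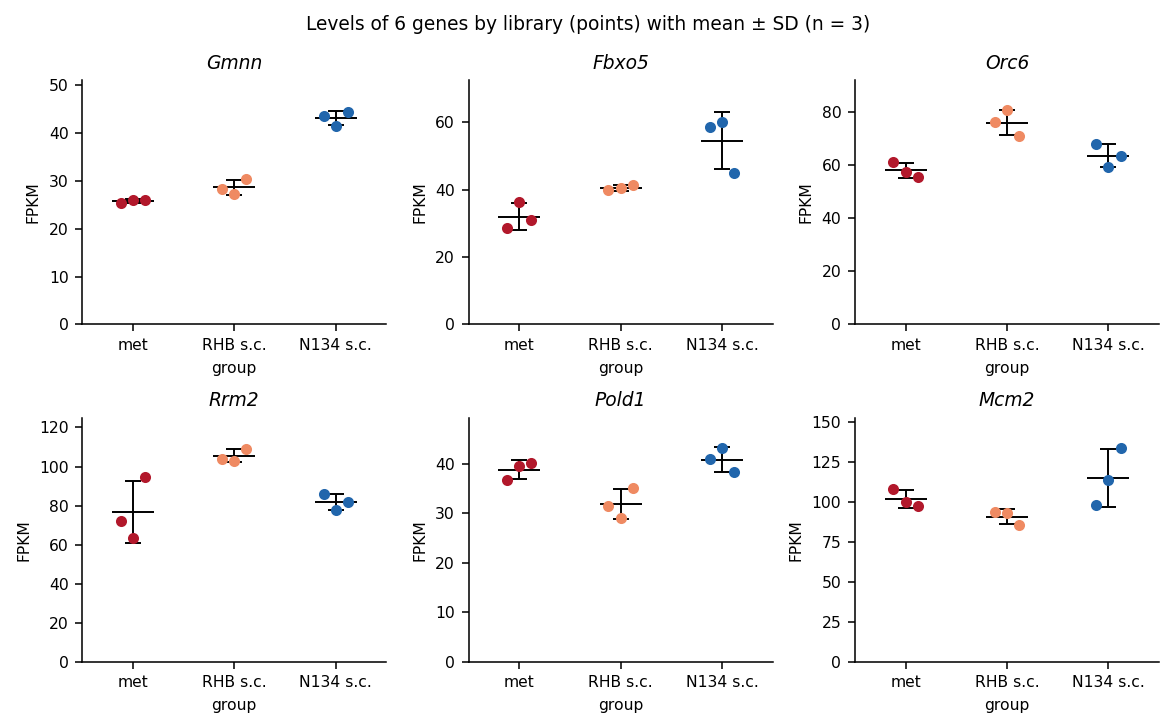
FPKM of Gmnn, Fbxo5, Orc6, Rrm2, Pold1 and Mcm2 in each library (points), with the mean and SD of each group (line and bar, n = 3), for metastases (met), N134-RHAMMB tumours (RHB s.c.) and N134 tumours (N134 s.c.) from left to right. Gmnn and Fbxo5 are highest in N134 tumours, and Orc6 and Rrm2 are highest in N134-RHAMMB tumours.

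Other genes of S phase entry and its checkpoints (29 genes, all tested) held 2 that fell in metastases against N134 tumours, where 4.23% of all genes were called lower. Fbxo5, whose product Emi1 inhibits the ubiquitin ligase that destroys geminin and cyclin A, stood at 28.6, 36.5 and 31.0 FPKM in metastases and 39.8, 40.4 and 41.4 FPKM in N134-RHAMMB tumours, against 58.6, 60.2 and 44.9 FPKM in N134 tumours. Its difference between metastases and N134 tumours was -0.75 (limma adjusted p = 0.00448), and it passed under all 21 alternatives (adjusted p up to 0.0317). Ccna2, cyclin A, stood at 111.9, 114.1 and 115.5 FPKM in metastases and 131.5, 130.0 and 130.9 FPKM in N134-RHAMMB tumours, against 161.5, 137.4 and 147.7 FPKM in N134 tumours, and fell by 0.38 (adjusted p = 0.0189). In both genes the 3 groups did not overlap. The call of Ccna2 was lost in 7 of 21 alternatives, among them without N134 tumour 1 or 3 (limma adjusted p = 0.0830 and 0.0673), on the islet scale (0.213), with the 2 groups alone (0.0682) and with no intensity trend (0.0545). Of its exonic bases 12.5% are shared with Exosc9.

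In this list none passed in the other comparisons, where 6 and 6 genes had an unadjusted p under 0.05. The largest differences between N134-RHAMMB and N134 tumours were those of the D-type cyclin Ccnd2 (-0.93, limma adjusted p = 0.133) and its kinase Cdk6 (-0.66, adjusted p = 0.238), both scarce in all 3 groups. Ccnd2 averaged 1.18 ± 0.270 FPKM in N134-RHAMMB tumours, against 3.22 ± 1.13 FPKM in N134 tumours, and between metastases and N134 tumours it stood at -0.53 (adjusted p = 0.157). Between metastases and N134-RHAMMB tumours Cdk6 stood at 0.57 (adjusted p = 0.192) and Tfdp1, the partner of E2F factors, at -0.44 (adjusted p = 0.0773). Tfdp1 passed in 2 of 21 alternatives, with library weights and without metastasis 3 (-0.59, adjusted p = 0.00639).

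Of 34 other replication factors, none passed in any comparison, with 4, 3 and 2 at an unadjusted p under 0.05 in the order of the comparisons above. Their medians were 0.06, -0.09 and -0.03. Between N134-RHAMMB and N134 tumours the largest were Rpa3, the small single-strand binding subunit (0.39, limma adjusted p = 0.362), and Pole2 (0.33, adjusted p = 0.365). Between metastases and N134-RHAMMB tumours they were the fork protection factor Tipin (-0.42, adjusted p = 0.227) and Rpa3 (-0.37, adjusted p = 0.296). Tipin passed in 2 of 21 alternatives, with library weights and without metastasis 2 (-0.63, adjusted p = 0.00650). Between metastases and N134 tumours the largest were the checkpoint adaptor Clspn (-0.37, adjusted p = 0.102) and the helicase Mcm9 (-0.31, adjusted p = 0.298).

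Of 30 other nucleotide synthesis enzymes, 0, 1 and 1 passed in the same order (0.194%, 6.56% and 9.93% of all genes), beside 4, 5 and 5 at an unadjusted p under 0.05, and their medians were 0.16, -0.10 and 0.08. Nme1, a nucleoside diphosphate kinase, fell to 54.1 ± 10.9 FPKM in metastases, against 86.0 ± 13.6 FPKM in N134-RHAMMB tumours (-0.66, limma adjusted p = 0.0328). Its call was lost in 14 of 21 alternatives, among them without metastasis 1 or 3, N134-RHAMMB tumour 1 or 2, or N134 tumour 1 or 2 (adjusted p = 0.0555 to 0.152), and on the islet scale (-0.47, adjusted p = 0.256). It shares 12.5% of its exonic bases with Gm20390 on the same strand. Shmt1, which supplies one-carbon units to thymidylate synthesis and is also a liver enzyme, rose to 28.1 ± 3.44 FPKM in metastases, against 20.1 ± 2.13 FPKM in N134 tumours (0.46, adjusted p = 0.0419). Its call was lost in 12 of 21 alternatives, among them without metastasis 1 or 3, any 1 N134-RHAMMB tumour, or N134 tumour 2 or 3 (adjusted p = 0.0583 to 0.157).

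Among enzymes that did not pass, Impdh2, the rate-limiting enzyme of guanine nucleotide synthesis, stood at 0.49 between N134-RHAMMB and N134 tumours (limma adjusted p = 0.232) and at -0.59 between metastases and N134-RHAMMB tumours (adjusted p = 0.0527). The second difference passed in 2 of 21 alternatives, with library weights and without metastasis 2 (-0.74, adjusted p = 0.00510). Prps2, which makes phosphoribosyl pyrophosphate, stood at 0.63 between N134-RHAMMB and N134 tumours (adjusted p = 0.174) and at 0.48 between metastases and N134 tumours (adjusted p = 0.112). The first passed in 2 of 21 alternatives, with library weights and without metastasis 2 (adjusted p = 0.0466). The second passed in 1 of 21, without metastasis 1 (0.64, adjusted p = 0.0337).

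Within the metastases, library 2 stood apart for some members, and on the low side for a larger share of all genes. A member was counted as low alone where a library lay under 0.8 times the lowest of the other 2 libraries of its group. In metastasis 2 this held for 7 of 38 members, Ccne1, Pola2, Prim1, Fen1, Lig1, Rrm1 and Tk1, and for 25.5% of all genes tested. In metastasis 3 it held for 3 members, Orc1, Cdc6 and Rpa2 (6.08% of all genes), and in the other 7 libraries for 0 members (2.69% to 18.2% of all genes). Tk1 stood at 45.6, 30.0 and 56.6 FPKM in the 3 metastases, Lig1 at 38.5, 24.8 and 41.6 FPKM and Pola2 at 37.6, 20.9 and 35.1 FPKM. Tyms was the member with the opposite pattern, at 139.6 FPKM in metastasis 2.

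Across the 38 genes, Pearson's r of log2 levels between libraries of a group was 0.937 to 0.969 in metastases and 0.993 to 0.996 in N134-RHAMMB tumours, against 0.992 to 0.993 in N134 tumours. These values are across genes, which are not independent replicates, and the spread between metastases was the widest. Without metastasis 2 the members' median difference from N134-RHAMMB tumours was -0.09 and from N134 tumours 0.01. In metastasis 2 the summed fibroblast and macrophage markers were also the lowest of the 9 libraries, at 223 and 215 FPKM, and the summed islet markers (3821 FPKM against 4811 to 4868 FPKM in the other metastases) as well. Their part in the pattern was not tested.

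**Figure D4:**
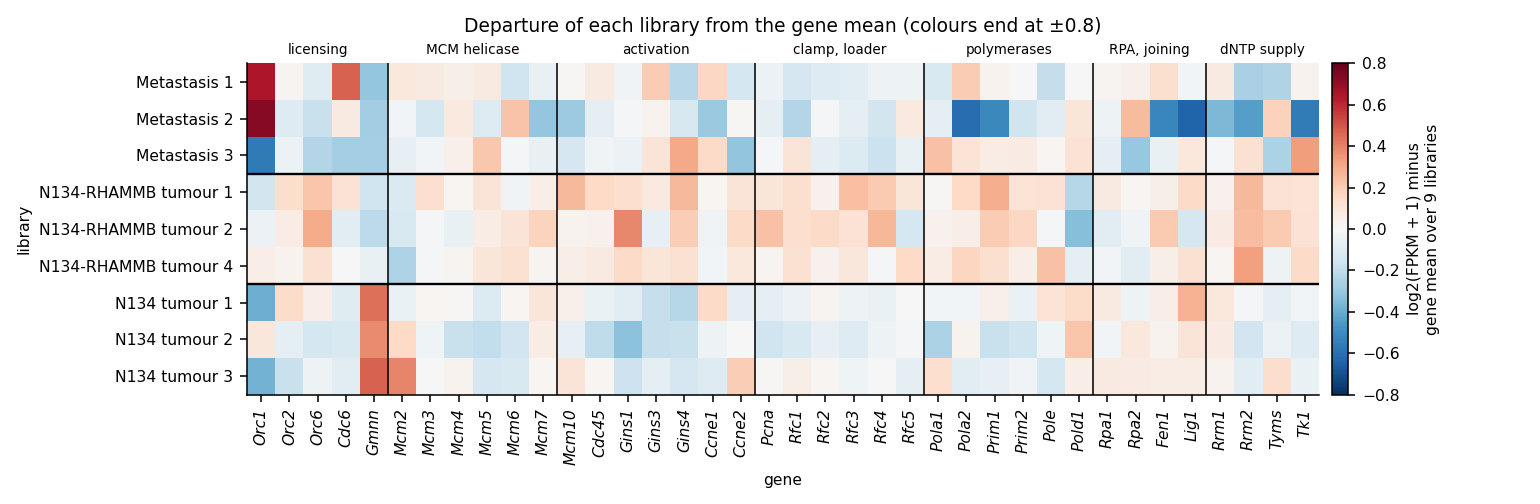
Departure of each library from the gene's mean over the 9 libraries on the log2(FPKM + 1) scale (colour), for the 38 genes by role (columns) and for metastases, N134-RHAMMB tumours and N134 tumours from top to bottom. Gmnn is high in the 3 N134 tumours, and metastasis 2 is low for Pola2, Prim1, Fen1, Lig1 and Tk1.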

How the data were processed

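RNA of 9 samples in 3 groups of 3 was extracted with Qiagen miRNeasy and QIAshredder kits, per the labels' protocols. The deposited values are FPKM per gene, with a status word for each value. The submitters' processing notes name bcl2fastq 2.19, STAR 2.5.2, Cufflinks 2.1.1 and GRCm38; library type and strand setting are not stated there. FPKM are not counts, so no count model was used. Of 22053 rows, 7 with a failed status and 102 with a repeated symbol were left out. Genes at 1 FPKM or more in at least 3 libraries (12854 of 21944) were tested on log2(FPKM + 1) with limma 3.58.1 (R 4.3.3), all groups in 1 model with 6 residual degrees of freedom, an intensity trend and Benjamini-Hochberg adjustment over all genes, at a threshold of 0.05. Fold changes on this scale understate those of low genes. The procedure was tested on simulated data in which 200 of 12854 genes were changed in metastases. It recovered 84% of changes of 1 on the log2 scale and 99% of changes of 2. Of the unchanged genes it called 15. Changes as small as those of the members were not simulated, so their recovery is not known. Library depth was estimated from the commonest low FPKM, taken as 1 fragment, in genes with a single annotated transcript. Exon overlaps come from GENCODE M21, and deposited starts lay 1 base below it in 82.1% of matched rows. The members and gene lists were chosen with earlier results of these data known. Genes named were those that passed, the 6 largest differences among members and the 2 largest of each other list in each comparison, with library values for the 2 most abundant members of each role.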

Additional observations from a re-analysis of the deposited data

How the results depend on the processing

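Members called numbered 1 in each comparison. For N134-RHAMMB against N134 tumours the number was 0 with a mean of at least 5 FPKM, no intensity trend, robust empirical Bayes or the replicate block, 11 with library weights, and 0 to 1 when 1 library was left out. For metastases against N134-RHAMMB tumours it was 0 with a mean of at least 5 FPKM, median-of-ratios scaling, quantile normalization, the 2 groups alone, no trend or the replicate block, 5 with library weights, and 0 to 1 without 1 library. For metastases against N134 tumours it was 1 to 2 without 1 library (2 without metastasis 2 or 3).

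All genes called numbered 25, 843 and 1276 in the same order. For the first the number was 15 with a mean of at least 5 FPKM, 42 on the islet scale, 169 with the 2 groups alone, 2629 with library weights, 1 with the replicate block and 0 to 193 without 1 library. For the second it was 347 with a mean of at least 5 FPKM, 1950 with library weights and 650 to 1137 without 1 library. For the third it was 594 with a mean of at least 5 FPKM and 882 to 1571 without 1 library. Of all calls, 40%, 76.9% and 57.4% were higher, against 19%, 90.3% and 72.5% on the islet scale, and 66.7% in the second and 48% in the third with quantile normalization, where most calls turned lower. In the first, with few calls, the share was 54.2% with a pseudocount of 0.1 and 58.1% with library weights.

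The members' median moved to 0.0263 on the islet scale in the first comparison. In the second it was -0.0923 with median-of-ratios scaling, 0.0556 on the islet scale and -0.1642 to -0.0886 without 1 library. In the third it was -0.0019 with median-of-ratios scaling, 0.0702 on the islet scale and -0.0524 to 0.0059 without 1 library. Without N134-RHAMMB tumours 2 and 4, which held muscle transcripts, an alternative chosen after seeing the data, 0 members passed in the first 2 comparisons, and all genes called numbered 1 and 504. This leaves 1 N134-RHAMMB library, assumed to vary like the other groups, and Gmnn stayed at -0.59, so the lost calls say nothing about the muscle transcripts.

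With the replicate block Ccna2, Nme1 and Shmt1 also missed the threshold (limma adjusted p = 0.0629, 0.0504 and 0.0579). Whether replicate numbers pair the samples is not stated and cannot be told from these values. Deviations of same-numbered samples from their group means correlated at -0.003 to 0.102. Those of samples with different numbers correlated at -0.195 to 0.15 between groups. With 3 libraries a group, the median 95% interval of a member reached 0.25 to either side of its log2 difference, which limits what could be detected.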
